A study of Mus musculus with 40 samples.

Results

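The transcriptome of epiblast-like cells (EpiLCs) without lamins was compared with that of wild-type (WT) EpiLCs in 12 of the 40 total RNA libraries of the study, chosen by their labels: 4 libraries of lamin triple knockout (TKO) cells and 8 libraries of WT cells. The whole set holds 4 genotypes at 2 stages, with 8 WT libraries and 4 libraries per mutant at each stage. The mutants are TKO, with *Lmna*, *Lmnb1* and *Lmnb2* deleted; LBRKO, with *Lbr* disrupted in WT cells; and QKO, with *Lbr* disrupted in TKO cells. The study asked what the lamins and the lamin B receptor (LBR) do for heterochromatin and gene expression as mouse embryonic stem (mES) cells leave naive pluripotency. Naive mES cells were kept in 2i with LIF, and EpiLCs were collected 48 h after a move to N2B27 with FGF (20 ng/mL) and Activin A (12 ng/mL). Both TKO and WT EpiLCs received that treatment and were XY cells of the same stage. The TKO cells are 1 line and the WT cells are its littermate line, so the 4 TKO libraries are separate culture wells of 1 line, and p-values measure the spread between wells. By karyotype, the TKO line held populations with an extra chromosome 8, with or without loss of the Y chromosome, and the mostly normal WT line held some cells without Y, part of them with extra chromosomes 6 and 8. A difference between the lines other than the lamins cannot be told apart from the loss of the lamins.

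Lamins are intermediate filament proteins that form a meshwork under the inner nuclear membrane. *Lmna* encodes the A-type lamins, which are low in pluripotent cells, and *Lmnb1* and *Lmnb2* encode the B-type lamins. The meshwork and LBR, an inner membrane protein that binds B-type lamins and HP1, hold heterochromatin at the nuclear edge, where many silent genes and transposable elements (TEs) lie. EpiLCs model the epiblast around implantation, when naive factors such as *Klf4* give way to *Fgf5*, *Otx2* and the DNA methyltransferases.

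Gene counts came to 22.6 to 33.2 M per TKO library, 25.4 to 33.5 M in WT libraries 1 to 4 and 44.4 to 48.9 M in WT libraries 5 to 8. Comparisons were therefore made against all 8 WT libraries and repeated against WT 1 to 4 alone, whose depth is that of TKO. Between 27558 and 29311 genes had a read in a TKO library and between 28438 and 31629 in a WT library. Mitochondrially encoded genes took 0.649% to 0.705% of counts in TKO and 0.505% to 0.799% in WT. No 2 libraries of a group agreed within counting noise. TKO library 1 stood apart from the other three in several TE families, and its values are given with each of them. Levels are in CPM, a gene's count scaled to a library of common size, with sizes set by the trimmed mean of M values (TMM), and a gene was called changed with an adjusted p under 0.05 (edgeR quasi-likelihood test, Benjamini-Hochberg) and a fold change over 2. Log2 fold changes are TKO minus WT with standard errors.

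The B-type lamin genes were all but silent in TKO EpiLCs. *Lmnb1* lay between 499 and 547 CPM in WT with a median of 509, and at 0.927, 1.17, 0.535 and 0.727 CPM in TKO 1 to 4, which is 92 reads in 4 libraries against 152888 reads in 8. Its log2 fold change was −9.26 ± 0.11 (edgeR adjusted p = 3.43e-43). *Lmnb2* lay between 89.8 and 102 CPM in WT with a median of 95.4, and at 1.68, 2.49, 3.37 and 2.76 CPM in TKO, a log2 fold change of −5.21 ± 0.13 (edgeR adjusted p = 4.03e-30). Neither gene overlapped between the groups, so the TKO libraries lack B-type lamin expression, as their labels imply. QKO EpiLCs, with means of 1.83 CPM for *Lmnb1* and 1.48 CPM for *Lmnb2*, share this loss, which therefore does not tell TKO from QKO. *Lmna* was low in both: 9.28 to 13 CPM in WT with a median of 11.4, and 7.55, 7.74, 8.34 and 7.36 CPM in TKO. The groups did not overlap, but the log2 fold change of −0.55 ± 0.11 (edgeR adjusted p = 2.00e-04) stayed under 2-fold. Counts are over the whole *Lmna* gene, and which part was deleted is not shown by them, so that its reads are no check of the deletion. *Lbr*, intact in both lines, lay between 364 and 513 CPM in WT with a median of 421 and at 335, 378, 372 and 383 CPM in TKO. Its ranges overlapped, and the log2 difference was −0.22 ± 0.13 (edgeR adjusted p = 0.288).

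**Figure D1:**
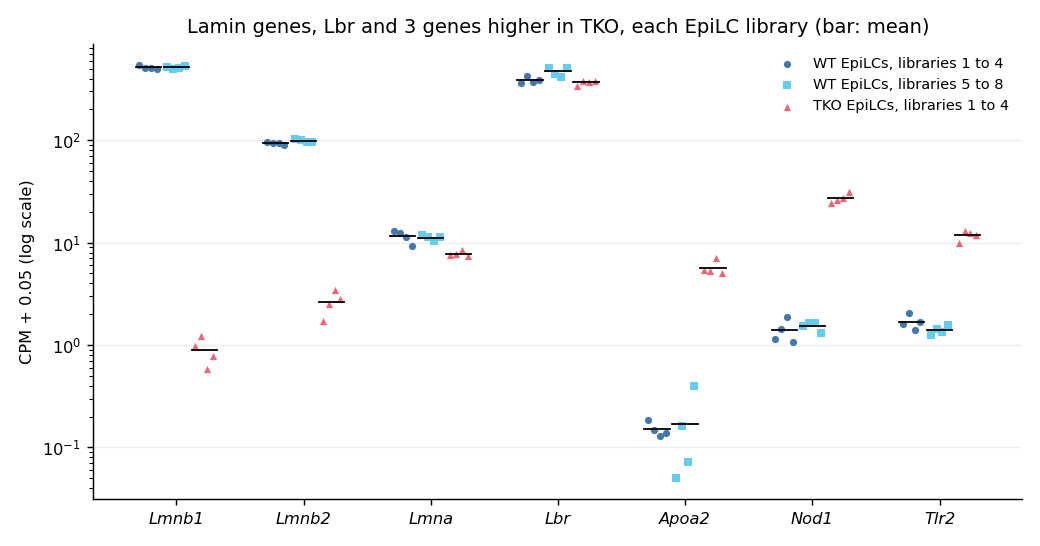
Level (CPM plus 0.05, log axis) of 3 lamin genes, *Lbr*, *Apoa2*, *Nod1* and *Tlr2* in each EpiLC library, with WT 1 to 4, WT 5 to 8 and TKO in separate symbols. *Lmnb1* and *Lmnb2* sit between 0.535 and 3.37 CPM in TKO, and *Apoa2*, *Nod1* and *Tlr2* sit above every WT library.

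Markers of the EpiLC stage were expressed in both lines. None of the 15 tested formative and primed genes was called, with a median log2 difference of 0.02. Over all genes 1.44% rose and 1.48% fell, so a list this short holds few or no calls at those shares. Of the 15, 3 had an adjusted p under 0.05 at less than 2-fold, against 3431 of all 23399 genes at any fold. In 2 of the 15 every TKO library lay above every WT library, and in 2 every one lay below. The summed level of the list was 5127 to 6235 CPM in WT and 5217 to 5590 CPM in TKO. *Fgf5*, a ligand that marks the primed epiblast, had a mean of 146 CPM in WT and 158 CPM in TKO. *Otx2*, a transcription factor of the epiblast and forebrain, had 119 CPM in WT and 70.1 CPM in TKO, a difference that did not pass the test. None of the 7 core pluripotency genes was called either, though 2 had an adjusted p under 0.05 at less than 2-fold. *Pou5f1* stood at 490 CPM in WT and 410 CPM in TKO. Of 14 naive genes, *Dppa3* alone rose (0.970 to 2.51 CPM, log2 fold change 1.37), where 1.44% of all genes rose, and the median was −0.25. *Dppa3* encodes a maternal factor that protects DNA from methylation. *Klf5* (66.3 to 38.0 CPM) and *Esrrb* (16 to 10.3 CPM) were lower with adjusted p under 0.05 but by less than 2-fold.

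Of 23399 genes tested, 336 rose (1.44%) and 346 fell (1.48%). Against WT 1 to 4 alone, 194 rose (0.84%) and 250 fell (1.08%) of 23099. Of the 336, 152 also rose against WT 1 to 4, and of the 346, 218 also fell. WT 5 to 8 alone gave 673 higher and 425 lower genes. The median log2 fold change was −0.035 over all tested genes, and −0.01 against WT 1 to 4. In 675 genes (2.88%) every TKO library lay above every WT library and in 1479 genes (6.32%) every one lay below.

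**Figure D2:**
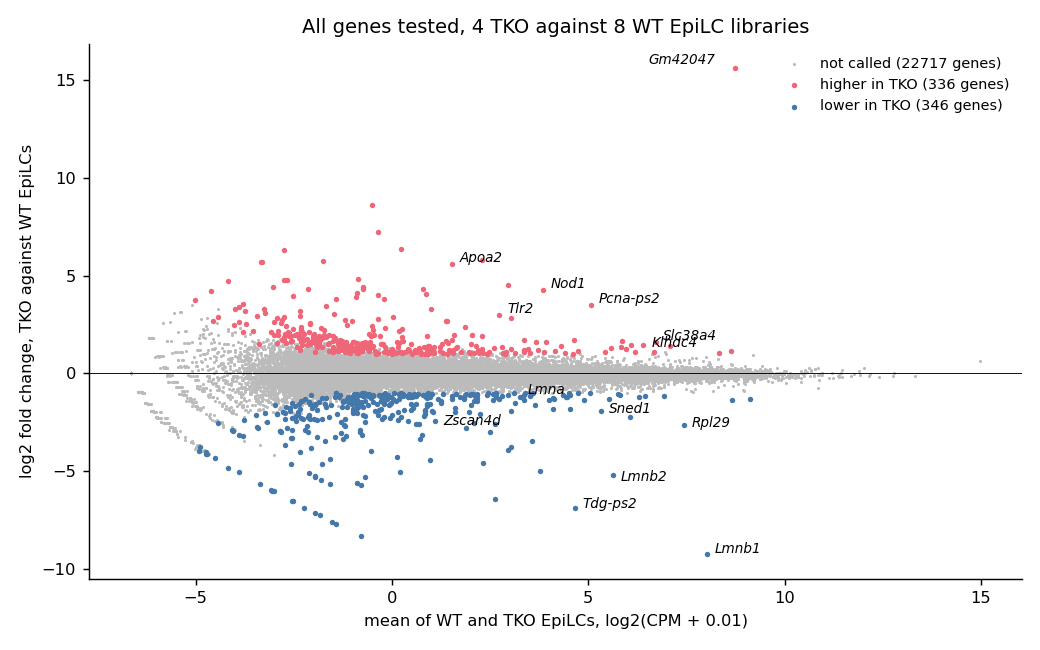
Log2 fold change between TKO and WT EpiLCs (vertical) against the mean level (horizontal, log2 of CPM plus 0.01) for all tested genes, with the 336 higher genes in red, the 346 lower genes in blue and some genes of the text marked. Most points lie near 0, *Lmnb1* lies lowest at −9.26 and the noncoding RNA *Gm42047* highest.

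The genes that rose and those that fell differed in kind. Of the 336 higher genes, 126 (37.5%) were protein coding, 92 (27.4%) were long noncoding RNAs and 92 (27.4%) pseudogenes. Of the 346 lower genes, 245 (70.8%) were protein coding, 49 (14.2%) long noncoding RNAs and 37 (10.7%) pseudogenes. Among all tested genes these shares were 66.1%, 13.9% and 12.4%. Many called genes were barely expressed. In the higher group, 179 of the higher (53.3%) and 164 of the lower genes (47.4%) reached less than 1 CPM. Over all tested genes that share was 35.2%, and 10917 of 23399 reached 5 CPM. Only 60 of the higher and 73 of the lower genes reached 5 CPM. Of these, 53 higher and 69 lower genes had no overlap between TKO and WT libraries, and 36 and 61 carry a gene symbol that is not a clone name. The 12 with the largest change in each direction are described next, and all 24 were also called against WT 1 to 4.

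Immune receptor genes were among the 12 that rose most. *Nod1* (ENSMUSG00000038058.15, chr6:54900927-54949647, minus strand, GRCm39) encodes a cytosolic sensor of bacterial peptidoglycan that signals through RIPK2 to NF-kB. It lay between 1.03 and 1.83 CPM in WT with a median of 1.44, and at 24.5, 25.9, 27.5 and 31.2 CPM in TKO, a log2 fold change of 4.27 ± 0.16 (edgeR adjusted p = 3.19e-23). *Tlr2* (ENSMUSG00000027995.11, chr3:83743576-83749074, minus strand) encodes a cell surface receptor for bacterial lipoproteins. It lay between 1.21 and 2.00 CPM in WT with a median of 1.46, and at 9.80, 13, 12.5 and 11.9 CPM in TKO, a log2 fold change of 2.98 ± 0.20 (edgeR adjusted p = 3.70e-15). Every TKO library was far above the highest WT library in both. *Apoa2* (ENSMUSG00000005681.13, chr1:171049125-171053948, plus strand), a gene of high density lipoprotein made mainly in liver, was close to silent in WT, at 0 to 0.350 CPM with a median of 0.0925. It reached 5.39, 5.19, 7.0 and 4.97 CPM in TKO, 615 reads against 34 in WT, a log2 fold change of 5.59 ± 0.33 (edgeR adjusted p = 6.67e-17). These 3 genes were known from earlier results of these data before they were listed, so their place is a description.

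Few other genes of their pathways were called. Among 26 tested genes of NOD and Toll-like receptor signalling, *Nod1* and *Tlr2* were the 2 that rose and none fell, against 1.44% and 1.48% of all genes, and the median was −0.14. The adaptor kinase *Ripk2* had means of 17 CPM in WT and 14.5 CPM in TKO, and *Myd88*, the adaptor of TLR2, 5.12 and 4.41 CPM. The NF-kB feedback target *Nfkbia* stood at 14.5 CPM in WT and 14.7 CPM in TKO. *Apoa2* was the single gene called among 8 apolipoprotein genes, whose median was −0.04. *Apoe*, a carrier of cholesterol made in many tissues, had 82.7 CPM in WT and 81.5 CPM in TKO.

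The 250 bases just upstream of the *Nod1* and *Tlr2* starts are shown because both genes were low in WT and rose in TKO. Each start is the outermost one in GENCODE M39, on the GRCm39 genome sequence. The *Tlr2* stretch is chr3:83749075-83749324 and that of *Nod1* is chr6:54949648-54949897, both read on the minus strand. Capitals mark a CCAAT box, ATTGG on the other strand, and a match to the NF-kB consensus.
Tlr2 upstream: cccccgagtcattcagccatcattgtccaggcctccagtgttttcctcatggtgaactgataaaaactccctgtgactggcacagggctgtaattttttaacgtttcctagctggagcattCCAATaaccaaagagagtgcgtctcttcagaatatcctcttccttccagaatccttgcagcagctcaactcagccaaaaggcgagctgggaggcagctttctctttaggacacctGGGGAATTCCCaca
Nod1 upstream: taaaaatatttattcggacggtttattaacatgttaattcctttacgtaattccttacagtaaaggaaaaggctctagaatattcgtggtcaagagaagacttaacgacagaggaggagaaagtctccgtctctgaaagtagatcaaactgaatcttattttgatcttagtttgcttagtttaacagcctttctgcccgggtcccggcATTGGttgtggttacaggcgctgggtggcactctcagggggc

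The *Tlr2* stretch holds 49.2% G and C and 4 CG pairs, with a CCAAT box 129 bases upstream of the start. The *Nod1* stretch holds 42.0% G and C and 9 CG pairs, with a CCAAT box on the other strand 42 bases upstream. The NF-kB consensus was found on either strand in 4.12% of the 15477 protein-coding stretches of the same length, in 7.14% of those of the higher genes and in 4.49% of those of the lower genes. CCAAT was found in 35.4% of all, 38.1% of the higher and 34.7% of the lower. The stretches of changed genes were poorer in CG pairs, with a median of 5 in the higher and in the lower genes against 9 over all. GGGCGG, the core of GC boxes, was found in 38.3% of all, 23.8% of the higher and 30.2% of the lower. TATAAA was found in 8.86% of all, 9.52% of the higher and 19.2% of the lower. These shares describe letters in a window, in sets of genes not matched for expression level, and were not tested.

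Other genes that rose include *Cyct*, the testis form of cytochrome c (mean 1.98 CPM in WT, 14.4 CPM in TKO, log2 fold change 2.86 ± 0.19), and *Smc1b*, a meiotic cohesin subunit (2.13 to 5.90 CPM, 1.49 ± 0.28). *Nlrp4f*, an oocyte gene of the NLRP family, rose from 4.75 to 15.8 CPM (1.72 ± 0.13), and its close relatives make its value uncertain. *Irx3*, a homeobox factor of the neural plate, rose from 1.65 to 6.54 CPM (1.99 ± 0.25), with TKO 1 at 9.75 CPM and the others at 4.97 to 6.27 CPM. *Slc38a4*, an imprinted amino acid transporter of placenta and liver, lay between 43.6 and 63.4 CPM in WT and at 133, 167, 159 and 172 CPM in TKO (1.61 ± 0.09, edgeR adjusted p = 3.00e-18). It is the most abundant of the 12 in TKO, and its groups stood far apart. *Efhc2* (1.6 ± 0.16), *Ggct*, an enzyme of glutathione turnover (1.59 ± 0.14), and *Klhdc4* (1.44 ± 0.05) complete the coding genes. The processed pseudogene *Pcna-ps2* rose from 5.47 to 61.6 CPM (3.50 ± 0.15), with the caution that it resembles the expressed gene *Pcna*.

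The strongest rise in the whole table was that of a long noncoding RNA beside *Klhdc4*, named here after its values were seen. *Gm42047* (chr8:122559877-122567924, plus strand) had 0 or 1 read in every WT EpiLC library, 4 reads in all, and 17739 to 28517 reads per TKO library, which is 783 to 894 CPM. Its mean was 824 CPM in QKO and 0.0216 CPM in LBRKO EpiLCs, and 445 CPM in TKO mES cells against 0.0514 CPM in WT mES cells. It was thus abundant in TKO and QKO cells and near absent from WT and LBRKO cells. Of 9 tested genes within 100 kb, *Klhdc4* and *Gm24283* rose, and *Slc7a5*, an amino acid transporter, went from 1230 to 862 CPM, under 2-fold. *Gm57021*, another long noncoding RNA, had 0 reads in WT and 156 reads in TKO, a level at least 140-fold higher when WT is set at 3 reads over the group. *Gm7240*, a pseudogene on chromosome 13, rose from 0.186 to 9.54 CPM (5.78 ± 0.24).

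Genes within 100 kb of *Apoa2*, *Nod1* and *Tlr2* were examined in turn. Of 14 tested genes within 100 kb of *Apoa2*, which include *Sdhc* and *Fcer1g*, none was called, with log2 differences from −0.36 to 0.81. Of the 4 near *Nod1*, *Ggct* rose (from a mean of 6.36 CPM in WT to between 16.4 and 23.1 CPM in TKO), while *Znrf2* (0.27 ± 0.05) and *Gars1* (−0.20 ± 0.05) moved by less than 2-fold. Of the 2 near *Tlr2*, *Sfrp2*, a secreted WNT modulator, came to 0.98 ± 0.11 (18.5 to 36.3 CPM), just short of 2-fold. In the whole table, 86 higher genes fell into 35 runs of neighbours within 100 kb and 81 lower genes into 35 runs. How many runs gene density alone would give was not tested. Over all tested genes, 1.44% rose and 1.48% fell. A dense stretch of higher genes was chromosome 13 from 61 to 68 Mb, with 22 higher and 2 lower of 171 tested genes, though 3 of the 22 reached 5 CPM. Lower genes were dense on chromosome 12 from 18 to 24 Mb, with 16 lower and 2 higher of 79 tested genes, and on chromosome 7 from 10 to 12 Mb, with 9 lower of 13, where the *Zscan4* genes lie. These stretches were picked because they were known from earlier results of these data, so their counts are a description. They hold repeated gene families, in which reads that match several copies were not counted.

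Apart from the lamins, the 12 genes that fell most held several pseudogenes, whose values are uncertain because they resemble expressed parent genes. *Tdg-ps2* lay between 44.0 and 56.2 CPM in WT and between 0.391 and 0.459 CPM in TKO (−6.89 ± 0.16, edgeR adjusted p = 2.64e-31). *Ndufa12-ps* fell from 14.5 to 0.968 CPM (−3.91 ± 0.24), and *Gpr137b-ps* from 7.19 to 1.27 CPM (−2.52 ± 0.24). Among coding genes, *Igsf23*, of the immunoglobulin superfamily, fell from 15.3 to 1.12 CPM (−3.77 ± 0.16). *Crocc2*, a relative of ciliary rootletin, fell from 21.5 to 1.94 CPM (−3.47 ± 0.20). *Ankrd35* fell from 10.1 to 1.24 CPM (−3.02 ± 0.15) and *Vat1l* from 10.6 to 1.79 CPM (−2.57 ± 0.21). *Oasl2*, an interferon-induced gene, fell from 7.67 to 1.79 CPM (−2.10 ± 0.24). Lack of overlap between the groups was a condition for naming these genes.

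Some highly expressed genes also fell. *Rpl29*, a protein of the large ribosomal subunit, lay between 258 and 368 CPM in WT with a median of 285, and at 48.9, 48.8, 45.6 and 45.2 CPM in TKO, a log2 fold change of −2.66 ± 0.13 (edgeR adjusted p = 2.86e-19). The TKO libraries were tightly grouped and far below WT. *H2bc15*, a replication-dependent histone H2B gene, ranged widely in WT, from 54.5 to 156 CPM, and lay at 21.4 to 25.9 CPM in TKO (−2.24 ± 0.27). Ribosomal protein and histone genes have many near-identical copies, so both values are uncertain. *Rps3a1*, named after its values were seen, went from 784 to 322 CPM (−1.29 ± 0.10). *Crocc2* lies between *Kif1a*, a neuronal kinesin (119 to 54.0 CPM, −1.14 ± 0.10), and *Sned1* (63.1 to 16.4 CPM, −1.95 ± 0.16), and all 3 fell. *Kif1a* was not called against WT 1 to 4.

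Genes of the 2-cell-like state fell as a group. Of 11 tested members, 9 fell (background 1.48%), none rose, and the median was −1.97, against −0.035 over all genes. Against WT 1 to 4, 8 fell, and against WT 5 to 8, 6 fell. The summed level was 17.7 to 27.3 CPM in WT and 5.12 to 8.93 CPM in TKO, with no overlap. *Tcstv3* had 135 reads in WT and 1 in TKO (−5.26), and *Zfp352* fell by 3.48 on the log2 scale. *Zscan4a* (−2.59) and *Zscan4b* (−2.46), of a family that acts at telomeres in rare cells of mES cultures, fell along with *Zscan4c* to *Zscan4f*. *Usp17lc* was the ninth, and its call was lost without TKO 1 (−1.19) or TKO 3 (−1.14). The *Zscan4* and *Usp17l* genes are near-identical copies, and reads that match several copies were not counted, so the values of single members are uncertain. In bulk libraries, fewer cells in such a state and less RNA per cell cannot be told apart.

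Some Hox genes, which set position along the body axis, rose from low levels. Of 22 tested, 6 rose (background 1.44%), none fell and 16 were not called, with a median of 0.76, and 3 rose against WT 1 to 4 (background 0.84%). The summed level was 6.13 to 8.92 CPM in WT and 14.2 to 15.9 CPM in TKO. *Hoxd13* had the highest level of them in TKO, from 2.74 to 5.70 CPM (1.06). *Hoxb13* (3.18) rested on 3 reads in WT and 13 in TKO, and *Hoxb4* (2.90), *Hoxa3* (2.24) and *Hoxa10* (1.79) all stayed under 1 CPM. *Hoxd8* (1.84) lost its call without TKO 1, at 1.08, and *Hoxa10* without TKO 3, TKO 4 or WT 5, 6 or 8, at 1.36 to 1.71.

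Several of the 33 gene lists had no called member. In 14 of the gene lists no member was called against all 8 WT libraries by edgeR or DESeq2, among them 10 Nodal genes (3 with an unadjusted p under 0.05), 17 FGF genes (7), 18 primitive endoderm genes (5), 14 trophectoderm genes (4) and 16 germline genes (5). The same held for machinery of the nucleus: 23 nuclear envelope and pore genes (8 with an unadjusted p under 0.05), 21 genes of H3K9 methylation and HP1 (9), 16 genes of retrotransposon silencing (6), 15 genes of DNA methylation (3) and 23 genes of cholesterol synthesis (7), a pathway in which LBR itself is a sterol reductase. With fewer WT libraries, edgeR called 1 FGF gene higher against WT 1 to 4, and against WT 5 to 8 it called 1 Nodal and 1 germline gene higher and 1 trophectoderm gene lower. The medians of these lists lay between −0.14 and 0.19. Of all 23399 tested genes, 1.44% rose, 1.48% fell and 6228 had an unadjusted p under 0.05. At those shares a list of this size holds few or no calls, so nothing is read from the absence of calls. Some members moved by less than 2-fold: *Dnmt3l*, a cofactor of de novo methylation, from 146 to 255 CPM (0.81), and *Wiz*, a partner of the H3K9 methyltransferases G9a and GLP, from 129 to 69.4 CPM (−0.90). *Setdb1* had 197 CPM in both.

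**Figure D3:**
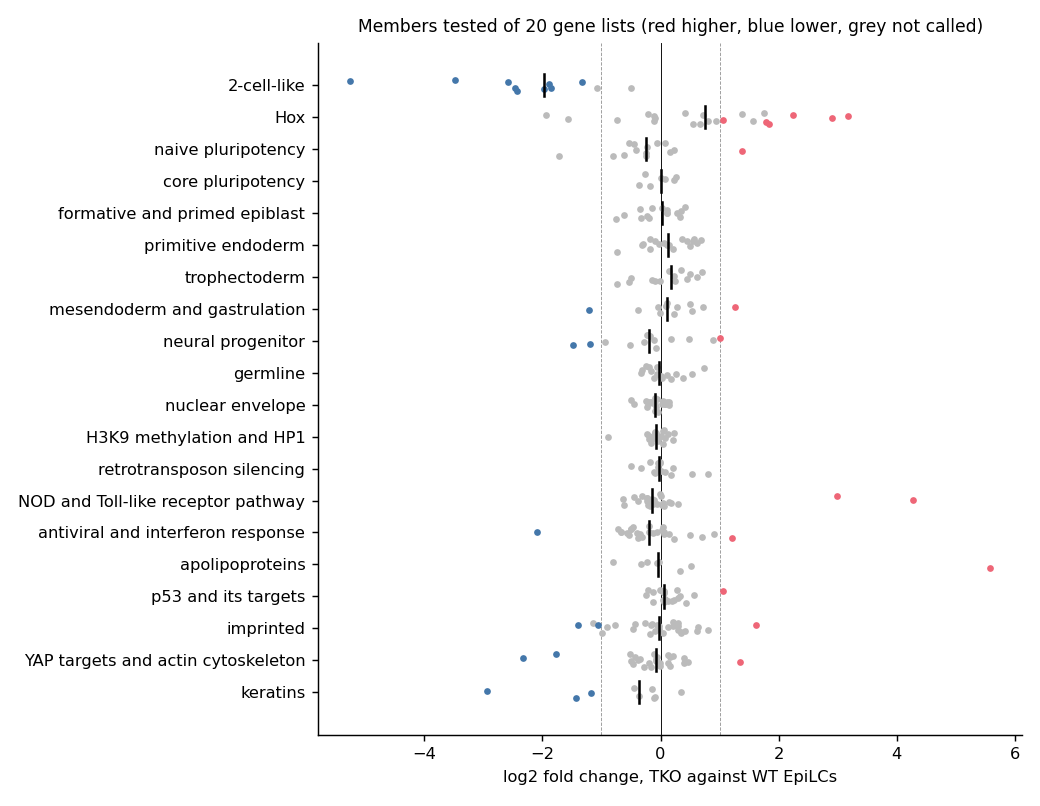
Log2 fold change (TKO minus WT EpiLCs) of the tested members of 20 gene lists, a point per gene, with a bar at each list's median. The 2-cell-like list lies to the negative side with a median of −1.97 and the Hox list to the positive side with 0.76, while most other medians are close to 0.

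A few lists held isolated changes. Of 27 antiviral and interferon genes, *Oasl2* fell and *Ifi27* rose (1.21, from 0.119 to 0.257 CPM, a call lost against WT 1 to 4 at 0.75 and without any single library but WT 3, at 0.98 to 1.30), and the sensor *Cgas* went from 2.16 to 4.05 CPM, under 2-fold. Of 21 genes of p53 and its targets, *Pmaip1*, encoding the death-promoting protein NOXA, rose from 209 to 437 CPM (1.06 ± 0.09) in every TKO library and came to 1.00 against WT 1 to 4, not called. *Cdkn1a* stood at 58.1 and 73.3 CPM. Of 18 apoptosis genes, *Casp8* (1.14) and *Pmaip1* rose. Of 30 imprinted genes, *Slc38a4* rose, and *Slc22a18* (−1.40) and *Magel2* (−1.05, but −0.79 against WT 1 to 4 and −0.99 without WT 8, not called) fell. Of 9 keratins, *Krt16* (−2.94), *Krt17* (−1.43) and *Krt42* (−1.18) fell, with 1 called against WT 1 to 4. Of 26 YAP and actin genes, *Anxa1* (−2.33) and *Acta2* (−1.77, and −1.05 against WT 5 to 8, not called) fell and *Thbs1* (1.35) rose. These counts are between 1 and 3 per list, against 1.44% of all genes called higher and 1.48% called lower.

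Lists of lineage markers and gene clusters held between 0 and 2 calls in a direction, where 1.44% of all genes rose and 1.48% fell. Of 13 WNT and mesendoderm genes, *Wnt8a* rose (1.26) and *Wnt5a* fell (−1.21), neither of them against WT 1 to 4. The *Wnt5a* call was also lost without TKO 1, 2 or 3 or WT 4, 5, 6 or 8, at −1.30 to −0.97. Of 14 neural genes, *Lhx2* rose (1.01, but 0.88 against WT 1 to 4, and 0.93 to 0.99 without TKO 3 or WT 4, 5, 6 or 8, not called), and 2 fell, among them *Tubb3*, neuronal tubulin (109 to 47.8 CPM, −1.19 ± 0.09). Of 7 fibroblast genes *Col1a2* rose (1.28, and 1.09 against WT 1 to 4, not called). Of 26 clustered protocadherins, *Pcdhb7* and *Pcdhgb1* (−1.11) fell, but against WT 1 to 4 *Pcdhgb1* was not called (−1.02), *Pcdhb7* was too low to be tested and *Pcdhgc4* was called higher (1.38). The *Pcdhb7* call was lost without TKO 2 (−2.93) or TKO 3 (−2.96), and that of *Pcdhgb1* without TKO 1 (−0.99) and in the table that shares multimapped reads (−0.03). Of 61 KRAB zinc finger genes from *Zfp900* to *Zfp999*, *Zfp999* fell, with a call lost without TKO 2 (−1.04), TKO 4 (−0.84) or WT 1 (−0.94), and the median was −0.05. Of 7 Y-linked genes *Zfy1* rose (1.49). None of 13 mitochondrially encoded genes was called, by edgeR or DESeq2, and none had an unadjusted p under 0.05.

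Part of these changes were present in naive TKO mES cells as well. Of the 336 higher genes, 124 were also called higher there, and of the 346 lower genes, 151 were also called lower. Over all 23399 tested genes, 628 were called higher and 881 lower in mES cells. Among the 24 genes named by size, which are the largest changes, 23 had the same sign there and 22 were called. The test of the difference between stages (TKO minus WT in EpiLCs, less the same in mES cells) called 440 genes with a more positive change in EpiLCs (1.88%) and 269 with a more negative one (1.15%). It called 5 of the 24. *Tlr2* rose by 2.98 in EpiLCs and by 1.95 in mES cells, a difference of 1.03 ± 0.29 (edgeR adjusted p = 0.0158). *Irx3* was higher in EpiLCs and lower in mES cells (1.99 and −1.43). *Slc38a4* rose more in mES cells, from 7.16 to 141 CPM (4.30), a difference of −2.69 ± 0.13. *Ankrd35* fell more in EpiLCs (−3.02 and −1.06). *Lmnb1* fell by 9.26 in EpiLCs and by 5.92 in mES cells, where 8.47 CPM remained on average. *Nod1* rose by 4.27 and 4.34, with a difference of −0.07 ± 0.24 that did not pass, and *Apoa2* by 5.59 and 6.63, a difference of −1.04 ± 0.59 that did not pass.

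**Figure D4:**
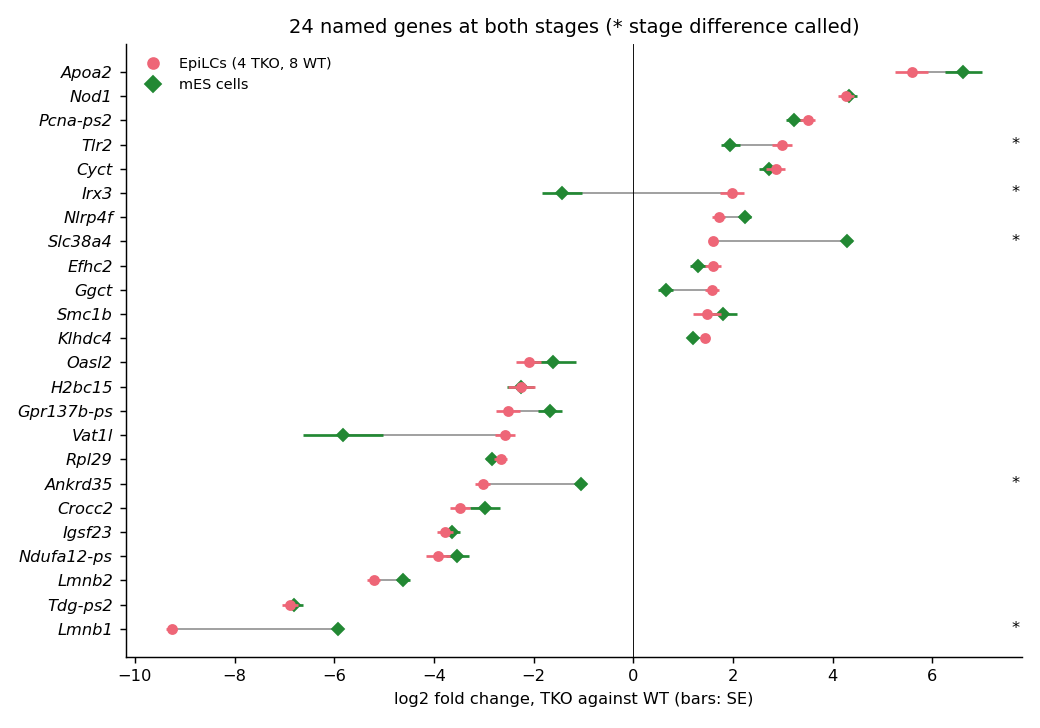
Log2 fold change (TKO minus WT, bars are standard errors) of the 24 named genes in EpiLCs and in naive mES cells, with an asterisk where the difference between the stages was called. Most pairs lie close together, and *Irx3* lies on opposite sides of 0.

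The same genes were set beside EpiLCs of the other mutants. TKO and LBRKO EpiLCs differed in 23 of the 24 (background 7.95%), the exception being *Nlrp4f* (15.8 CPM in TKO, 20.0 CPM in LBRKO, against 4.75 CPM in WT). The 24 genes were chosen for their distance from WT in the same TKO libraries, which largely fixes that count, and nothing is read from it. QKO and TKO EpiLCs differed in 7 of the 24 (background 15.3%). *Tlr2* was lower in QKO by 1.73 on the log2 scale (3.55 against 11.8 CPM), and *Irx3* by 2.95 (0.842 against 6.54 CPM). *Vat1l* (−1.15) and *Gpr137b-ps* (−1.17) were also lower in QKO, while *Efhc2* (1.25), *Smc1b* (1.34) and *Lmnb1* (1.12, at 1.83 CPM) were higher. *Nod1* had 36.0 CPM in QKO and 1.97 CPM in LBRKO, and *Apoa2* 8.80 and 0.0503 CPM.

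Transposable elements were counted by family in the table where a read can be shared between copies. Of 1142 families tested, 8 rose (0.701%) and 1 fell (0.0876%). Against WT 1 to 4, 5 of 1141 rose (0.438%) and 2 fell (0.175%). The median of all families was 0.013. The families that rose were 3 retroviral ones, 3 young LINE-1 families, a SINE and a DNA transposon.

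The endogenous retrovirus MMERGLN rose most. Its internal part, MMERGLN-int, lay between 2.01 and 5.32 CPM in WT with a median of 3.65, and at 226, 163, 162 and 160 CPM in TKO, a log2 fold change of 5.64 ± 0.21 (edgeR adjusted p = 2.91e-23). TKO 1 was the highest, and without it the change was 5.51. Its terminal repeat, MMERGLN_LTR, went from a median of 10.4 CPM to 163, 110, 115 and 115 CPM (3.52, and 3.38 without TKO 1). RLTR4_MM-int, a retrovirus related to murine leukaemia virus, lay between 400 and 541 CPM in WT and at 1521, 1332, 1303 and 1327 CPM in TKO (1.58 ± 0.11, and 1.53 without TKO 1). Over the 111 tested ERV1 families, 2 rose, none fell and the median was 0.02.

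Young LINE-1 elements, which still hold copies able to move, rose in part. L1MdA_I had a median of 375 CPM in WT with a highest value of 453, and 1477, 1240, 1248 and 1247 CPM in TKO, a log2 fold change of 1.80 ± 0.15 (edgeR adjusted p = 1.80e-12), or 1.75 without TKO 1. All TKO libraries were above WT by a wide gap. L1MdA_II rose by 1.11 (0.997 against WT 1 to 4, not called) and L1MdGf_I by 1.01 (0.95 against WT 1 to 4, not called; 0.99 without TKO 1), and the L1MdGf_I call was also lost without WT 5, WT 6 or WT 8 (0.97 to 1.00). These were 3 of 8 young LINE-1 families, whose median was 0.32. The 8 ranged from −0.72 to 1.80, and in 1 of them every TKO library lay below every WT library. None of 32 older families was called against all WT libraries by edgeR or DESeq2 (1 had an unadjusted p under 0.05), with 1 called higher against WT 5 to 8 alone. The SINE family B2_Mm1a ranged from 693 to 2160 CPM in WT and stood at 4130, 2630, 2423 and 2549 CPM in TKO (1.05). It was under 2-fold without TKO 1 (0.85), without WT 5 (0.95), without WT 8 (0.99) and against WT 1 to 4 (0.68). It was the single call among 20 B1 and B2 families, whose median was 0.13. The DNA element Charlie30a rose from a median of 1.62 CPM to between 3.59 and 3.98 CPM (1.14).

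**Figure D5:**
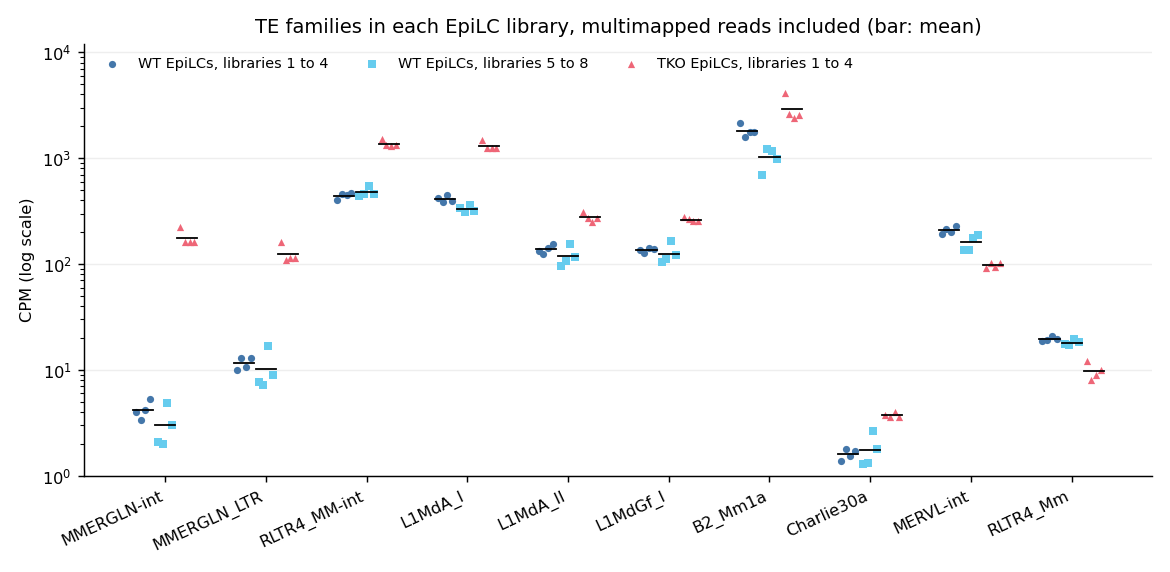
Level (CPM, log axis) of 10 TE families in each EpiLC library, with WT 1 to 4, WT 5 to 8 and TKO in separate symbols and a bar at each mean. MMERGLN-int, MMERGLN_LTR, L1MdA_I and RLTR4_MM-int sit above all WT libraries, with TKO 1 the highest of the 4, and MERVL-int sits below.

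Families of the ERVK class, often released when H3K9 methylation is lost, had no member called against all WT libraries. No IAP (25 tested), ETn or MusD (5), RLTR45 or ERVB4 (10) and no other ERVK family (274 in all) was called against all 8 WT libraries by edgeR or DESeq2, with an unadjusted p under 0.05 in 7, 2, 3 and 42 of them. Against WT 5 to 8 alone edgeR called 3 ERVK families higher. Of all 1142 families, 0.701% rose, 0.0876% fell and 102 had an unadjusted p under 0.05. The median was 0.12 for ERVK and 0.14 for IAP families, against 0.013 for all families. In 9 ERVK families every TKO library lay above every WT library and in 2 every one lay below, against 25 and 7 of all families. None of 177 ERVL and MaLR families was called by edgeR (10 with an unadjusted p under 0.05, and 1 lower by DESeq2), and none of 7 satellite families by either tool (2 with an unadjusted p under 0.05). MERVL-int, the retrovirus of the 2-cell stage, lay between 137 and 230 CPM in WT and between 91.0 and 103 CPM in TKO without overlap, a log2 difference of −0.93, and was called against WT 1 to 4 (−1.11). The mean of MERVL-int was 86.8 CPM in LBRKO and 147 CPM in QKO EpiLCs. TKO and LBRKO differed in it by 0.16 on the log2 scale (edgeR adjusted p = 0.522). RLTR4_Mm, the terminal repeat paired with RLTR4_MM-int, was lower by 0.95 and called against WT 1 to 4 (−1.01). The family called lower against all WT, ORSL-2a, stayed under 1 CPM (−1.26), and leaving out any TKO library or WT 2, 5 or 7 ended the call (−1.34 to −1.12). Several families changed differently in the 2 stages: 11 had a more negative change in EpiLCs (0.963%) and 1 a more positive one (0.0876%). RLTR45-int was 0.30 in EpiLCs and 1.62 in mES cells, ERVB4_2-I_MM −0.10 and 1.32, and ETnERV3-int −0.05 and 1.91. L1MdA_I changed by 1.80 in EpiLCs and 3.07 in mES cells, and MMERGLN-int by 5.64 and 4.48.

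Over all families, TE reads made up 9.62% ± 0.132 (SD, n = 4) of counts in TKO and 8.51% ± 0.985 (SD, n = 8) in WT EpiLCs. The difference was 1.11 percentage points (two-sided exact permutation test, p = 0.0364, adjusted p = 0.0909 over 5 shares). The WT libraries ranged from 7.12% to 10.2% and enclosed all TKO libraries, which lay between 9.46% and 9.78%. TKO exceeded WT 1 to 4 by 1.02 points (two-sided exact permutation test, p = 0.0286, adjusted p = 0.0476), and no split of 4 against 4 can give a lower p. LINEs (1.27% in WT, 1.48% in TKO) and SINEs (3.50% and 4.23%) did not pass after adjustment against all WT libraries, and both passed against WT 1 to 4 (exact permutation, adjusted p = 0.0476 for each). LTR elements (2.35% and 2.40%) and DNA elements (1.25% and 1.36%) passed in neither comparison.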

How the data were processed

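Total RNA from EpiLCs and mES cells was sequenced with a ribosomal RNA depleted, stranded kit. The authors deposited raw counts per gene and per TE family, without normalisation. According to the processing notes and methods, reads were trimmed with cutadapt 2.5 and mapped to GRCm39 with STAR 2.7.10a. Reads with a single alignment were counted over GENCODE M30 genes with featureCounts 1.6.4, and TE families with TEcount 2.2.3, allowing up to 100 positions per read. Whether counting used strand is not given in the sources used here. Genes that overlap or lie antisense are therefore uncertain.

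Differential expression was fitted here in edgeR 4.0.16 (R 4.3.3) by quasi-likelihood with TMM scaling and filterByExpr, in 1 model of group means over all 40 libraries; DESeq2 1.42.0 was an alternative. TE families were fitted together with genes and adjusted over families. Shares of TE counts were compared by exact permutation of libraries. Scripts were tested on simulated data. Symbols and positions are from GENCODE M39, in which 56017 of 56748 identifiers were found. Genes were named if called, without overlap between groups, at 5 CPM or more in the higher group and with a symbol (12 per direction, with 4 per list, and 8 higher and 5 lower TE families at 1 CPM); the lamins, *Lbr*, *Apoa2*, *Nod1* and *Tlr2* were always named. Members and lists were chosen with earlier results of these data known. Same-numbered TKO and WT libraries are not stated to be paired. Lists are described by counts and medians, with no set test. Results of a few genes are not reported here.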

Additional observations from a re-analysis of the deposited data

Results flagged for a closer look

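Of 80 groups of 4 or 8 libraries checked, 9 held a library far from the rest by Dixon's test, which chance gives in about 1 of 20 groups. TKO 1 was the highest of the TKO EpiLC libraries in MMERGLN-int (226 CPM, the others 160 to 163), MMERGLN_LTR (163, others 110 to 115), L1MdA_I (1477, others 1240 to 1248), RLTR4_MM-int (1521, others 1303 to 1332) and B2_Mm1a (4130, others 2423 to 2630). It was the lowest in *Efhc2* (20.2, others 23.6 to 23.8). In WT, library 8 was the highest in *Apoa2* (0.350, others 0 to 0.137), library 7 the highest in Charlie30a (2.64, others 1.30 to 1.79) and library 2 the lowest in *Cyct* (1.29, others 1.87 to 2.33). TKO 1 had a TE share of 9.78%, against 9.46% to 9.64% in the other TKO libraries, and what sets it apart was not tested.

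The change between TKO and WT differed between EpiLCs and mES cells (edgeR interaction, adjusted p under 0.05, over 2-fold) in 8 of 34 genes and TE families named by size or as targets. The difference was positive for *Tlr2* (1.03), *Irx3* (3.42), *Lmna* (1.32) and MMERGLN-int (1.16). It was negative for *Slc38a4* (−2.69), *Lmnb1* (−3.34), *Ankrd35* (−1.96) and L1MdA_I (−1.27). *Lmna* was the lamin whose difference in TKO was smaller in EpiLCs (−0.55) than in mES cells (−1.86), and its WT mean was 57.8 CPM at the naive stage against 11.3 CPM in EpiLCs.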

How the results depend on the processing

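The number of higher genes moved by more than 1.5 times with the WT libraries used, from 336 to 194 against WT 1 to 4 and 673 against WT 5 to 8. A fit on TKO and WT 1 to 4 EpiLCs alone, with the replicate number as a block, gave 182 higher and 209 lower genes. The nearest result without a block is that against WT 1 to 4, with 194 higher and 250 lower genes, in a fit that also held the other groups. Higher TE families were 5 against WT 1 to 4 and 14 against WT 5 to 8. Lower TE families were 2 against WT 1 to 4 or with the block, and 0 with families under 1 CPM left out, with the 12 libraries alone or against WT 5 to 8. Families with a more positive change in EpiLCs were 2 with WT 1 to 4 at both stages. The TE share passed against WT 1 to 4 (1.02 points) and without WT 7 (1.34 points, exact permutation adjusted p = 0.0101). DESeq2 gave 387 higher and 336 lower genes, of which 330 and 313 were shared. The replicate numbers are not stated to mark a pairing: same-numbered TKO and WT libraries had correlations of 0.449, 0.280, 0.0042 and 0.166, and not every library correlated best with its own number. With 1 library left out, higher genes numbered 263 to 378 and lower genes 287 to 348 (161 to 194 and 214 to 234 against WT 1 to 4), the stage difference 409 to 426 and 213 to 267, TE families 6 to 9 and 0 to 2 (0 to 1 and 9 to 12 between stages), and the TE share 0.909 to 1.34 points. No called value of a named gene or family changed sign. The other settings gave 1735 values for 82 named genes and families, called or not, and in 93 of these values a call was lost. Calls were lost or gained in 23 of the 82. Uncalled families near 0 did change sign, such as RLTR13B2 (−0.24 to 0.06), RLTR13A1 (−0.11 to 0.07) and RLTR10D2 (−0.16 to 0.10). Depth limits genes under 1 CPM most, where a few reads decide a call.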

Other observations

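The median difference varied between chromosomes. Among genes at 5 CPM or more, the median log2 difference between TKO and WT EpiLCs was −0.058 over all 10917 genes, −0.169 on chromosome 6 (−0.191 in mES cells) and −0.120 on chromosome 16, against −0.033 on chromosome 8. The part of chromosome number in these medians was not tested. *Nod1* and *Ggct*, on chromosome 6, rose although the median of their chromosome was among the lower ones. By share of tested genes, chromosome 13 held 43 higher genes of 1010 (4.26%) and chromosome 12 held 36 lower genes of 977 (3.69%). Over all tested genes, 1.44% rose and 1.48% fell. *Prtg*, a receptor of the epiblast and neural tube named after its values were seen, went from 64.9 to 141 CPM in EpiLCs (1.12 ± 0.17) and was not called against WT 1 to 4 (0.86). The pseudogene *H2af-ps2* stood at 349 CPM in TKO 1 and at 126 to 165 CPM in the other TKO libraries, against a WT mean of 73.7 CPM.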
